A study of Mus musculus with 9 samples.

Results

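The annexin genes described here are Anxa1, Anxa2, Anxa3, Anxa4, Anxa5, Anxa6, Anxa7, Anxa8 and Anxa11, which are 9 of the 12 genes named Anxa and a number among the 54532 genes of the deposited table. They were taken by name, and the family was chosen by the read counts of Anxa8, which were lower with rhWnt3a than with vehicle and lower again with rhWnt3a and OSMI. The values of Anxa8 chose the family, so they are given as a description with no test, and counts of members that passed a test cover the other 8 genes. Anxa9, Anxa10 and Anxa13 are the annexin genes outside the list. ST2 is a mouse stromal cell line derived from bone marrow, labelled here as wild-type mesenchymal stem cells of bone. Messenger RNA was sequenced after 72 h in 3 groups of 3 libraries each. The first group received vehicle, the next recombinant human Wnt3a (rhWnt3a) at 50 ng/ml, and the last rhWnt3a with 20 µM OSMI, an inhibitor of the enzyme OGT that attaches O-GlcNAc to proteins. The titles of the last group name both agents while its treatment label names OSMI alone, and no group was titled with OSMI alone. The libraries held 16417002 to 17583945 counted reads with vehicle, 16811833 to 17393439 with rhWnt3a, and 16135898 to 17022987 with rhWnt3a and OSMI. The study calls its replicates biological, while the labels do not say whether the libraries of a group came from separate cultures, and the p-values measure only the spread between samples.

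Annexins are proteins that bind negatively charged phospholipids of membranes when calcium is present, through a core of repeated domains, while their amino-terminal ends differ and bind partners such as S100 proteins. They take part in vesicle transport, in the resealing of torn plasma membrane and in the link between membrane and actin. In bone and cartilage, Anxa5, Anxa6 and Anxa2 are known as components of the matrix vesicles from which mineral begins to grow.

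Levels between genes can be compared only per length, and the deposited FPKM values (fragments per kilobase of gene, scaled to sequencing depth) serve here for that. Any order by FPKM depends on the gene length used, which can exceed that of the principal annotated transcript. It was 3731 bases for Anxa2 against 1447 in that transcript, and 4135 against 2394 for Anxa11. For Anxa5 it was 1777 against 1731, and for Anxa8 1880 in both. An order by transcript length was not computed. With vehicle the order of mean FPKM was Anxa5 at 184 ± 18.6 (SD, n = 3), Anxa2 at 157 ± 34.2 and Anxa1 at 128 ± 8.23. Anxa4 followed at 74.8 ± 2.0 FPKM, Anxa6 at 54.4 ± 6.46, Anxa3 at 45.8 ± 14.9 and Anxa7 at 22.5 ± 2.82. Anxa8 at 5.25 ± 0.621 FPKM and Anxa11 at 3.35 ± 0.502 were the least abundant. Neighbours in this order overlapped between libraries for Anxa5 and Anxa2, Anxa2 and Anxa1, and Anxa6 and Anxa3, and the remaining neighbours did not. With rhWnt3a, Anxa2 had the highest mean (166 ± 34.0 FPKM) and overlapped Anxa5 (137 ± 35.5), Anxa4 (29.9 ± 2.66 FPKM) stood below Anxa3 and overlapped Anxa6 (31.1 ± 2.47), and Anxa8 (1.67 ± 0.357 FPKM) overlapped Anxa11 (1.72 ± 0.128). With rhWnt3a and OSMI, Anxa5, Anxa1 and Anxa2 overlapped at 92.3 ± 29.2, 75.5 ± 22.4 and 73.1 ± 27.6 FPKM, and Anxa8 was last at 0.0922 ± 0.00274. Of the annexins outside the list, Anxa9 had 22 to 68 counts per library, Anxa10 had 0 in every library and Anxa13 had at most 6. Anxa9 was not called in any comparison by edgeR or by DESeq2, and its p unadjusted for multiple testing was not under 0.05 in any.

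The libraries of a group were not evenly alike, and this touches most annexin values. Each group had 1 library that differed from its companions: vehicle replicate 3, rhWnt3a replicate 2 and OSMI replicate 3. Their mean squared log2 differences from these companions were 0.423, 0.392 and 0.439, while the companions differed by 0.117, 0.111 and 0.119 among themselves. The first principal component of the deviations from group means explained 54.8% of their variance. This axis had vehicle replicate 3, rhWnt3a replicate 2 and OSMI replicates 1 and 2 on one side and the other 5 libraries on the opposite side. The sides differed in gene length. In each of the 4 libraries on the first side, the 3501 shortest tested genes (2358 bases or less) stood above their group mean and the 3501 longest (6418 bases or more) below it. The difference of the medians, longest minus shortest, was, by replicate number and on the log2 scale, 0.23, 0.11 and −0.34 in the vehicle group. The rhWnt3a group had 0.27, −0.48 and 0.20, and the OSMI group −0.26, −0.22 and 0.44. Anxa2, with a gene length of 3731 bases, deviated from its group mean by −0.22, −0.14 and 0.36 (log2) with vehicle, −0.15, 0.31 and −0.16 with rhWnt3a alone, and 0.45, 0.31 and −0.76 with rhWnt3a and OSMI. It thus stood high in each library where short genes stood high. Anxa1, Anxa3, Anxa5 and Anxa7 were likewise highest in vehicle replicate 3 and rhWnt3a replicate 2 of their groups and lowest in OSMI replicate 3, and so was Anxa4 in the last pair. Anxa11 did not follow this, and Anxa6 and Anxa8 did so in part. The genes that followed were 1777 (Anxa5) to 5991 bases long (Anxa7), and Anxa8, Anxa6 and Anxa11 had 1880, 2930 and 4135. The deviations of Anxa6 in vehicle replicate 3, rhWnt3a replicate 2 and OSMI replicate 3 were −0.19, 0.11 and 0.16, and those of Anxa8 0.16, −0.20 and −0.01. Between groups, the median log2 fold change of the shortest genes was −0.28 for OSMI against rhWnt3a and that of the longest 0.16. Against vehicle these medians were −0.21 and 0.19 with OSMI, and 0.08 and 0.04 with rhWnt3a. Some results are also given with a correction for gene length and without those 3 libraries, both chosen after the data had been seen.

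**Figure D1:**
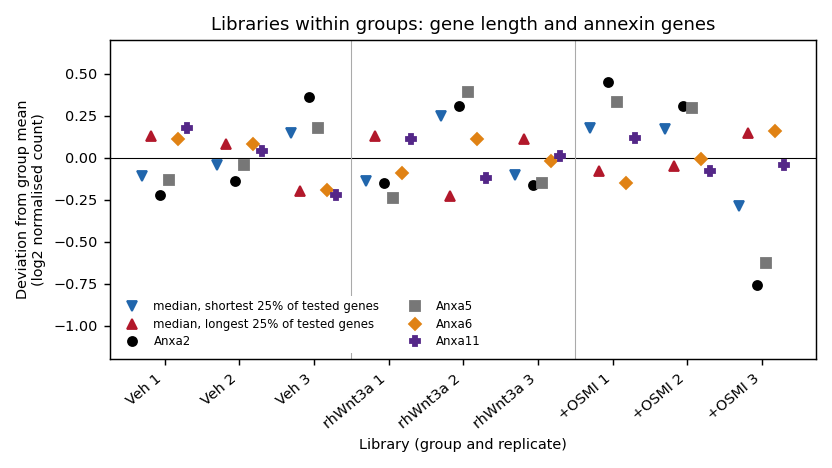
Deviation of each library from its group mean (log2 normalised count) for the median of the 3501 shortest and of the 3501 longest tested genes and for 4 annexin genes, with libraries on the x axis. Anxa2 and Anxa5 stand with the short genes in all 9 libraries, lowest in OSMI replicate 3 at −0.76 and −0.63, while Anxa6 stands at 0.16 there.

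Markers of the labelled cell type were present, and 12 stromal genes summed to 27890, 29440 and 22760 CPM with vehicle, 21100, 18280 and 20910 with rhWnt3a alone, and 10170, 9252 and 17570 with rhWnt3a and OSMI. CPM is the count scaled to the size of the library after TMM normalization. Col1a1 was the most abundant per length, and Thy1 had at most 10 counts in every library. Of the 11 tested, edgeR called 3 lower with rhWnt3a against vehicle, 4 lower with OSMI against rhWnt3a and 6 lower with OSMI against vehicle. A call needs both a log2 fold change larger than 0.5 in either direction and an adjusted p below 0.05. Over all tested genes, edgeR called 8.78%, 4.74% and 14.2% in the 3 comparisons, in either direction. Not all fell with OSMI against rhWnt3a, since Cd44 (log2 fold change 0.73, adjusted p = 0.0575, called by DESeq2) and Cxcl12 (0.43, adjusted p = 0.0971) were higher in every library with OSMI. Cartilage cell markers moved with the groups as well. Their 8 genes, of which Sox9 was the most abundant and none was at 0 throughout, summed to 530.8, 577.7 and 435.3 CPM with vehicle, to 122.5, 96.13 and 119.5 with rhWnt3a alone, and to 81.02, 86.6 and 132.1 with rhWnt3a and OSMI. Sox9, Col2a1 and Comp, with at least 18 counts in every library, were called lower with rhWnt3a and with OSMI against vehicle. The other 4 tested passed the filter on low counts only through the vehicle libraries, so their calls are not counted. Osteoblast markers (6 genes, Spp1 the most abundant) summed to 1747, 2030 and 2754 CPM with vehicle, 1336, 1863 and 1386 with rhWnt3a alone, and 903.8, 999.6 and 647.0 with rhWnt3a and OSMI. Spp1, which makes up most of these sums, was called lower with OSMI against vehicle (log2 fold change −1.46, SE 0.26, adjusted p = 0.00459). Runx2, the other one tested, went the opposite way and was higher in all libraries with OSMI (66.6, 70.6 and 95.8 CPM) than in any other, with log2 fold changes of 0.56 (SE 0.19, adjusted p = 0.0758) against vehicle and 0.44 (SE 0.19, adjusted p = 0.203) against rhWnt3a. Sp7, Bglap, Ibsp and Dmp1 had at most 10 counts in every library. The 5 adipocyte markers, led by Pparg, summed to 43.55, 48.36 and 51.91 CPM with vehicle, 10.95, 13.08 and 10.41 with rhWnt3a alone, and 14.75, 13.95 and 11.89 with rhWnt3a and OSMI, with Adipoq and Plin1 at most 10 counts. Pparg and Fabp4 were called lower with rhWnt3a and with OSMI against vehicle, while Lpl passed the filter only through the vehicle libraries. With OSMI against rhWnt3a, Pparg was called higher (log2 fold change 0.63, SE 0.14, adjusted p = 0.0374), and Fabp4 was lower in every library (−1.06, SE 0.34, adjusted p = 0.109) and called by DESeq2 alone. Hematopoietic markers (6 genes, Cd14 the most abundant) summed to at most 10.63 CPM, with Ptprc, Adgre1, Itgam and Csf1r at most 10 counts. The 5 endothelial markers summed to at most 2.803 CPM, with Pecam1, Cdh5 and Kdr at most 10 counts. Emcn had 19, 34 and 22 counts with vehicle, 0 in every rhWnt3a library and at most 2 with OSMI, and it passed the filter only through vehicle. The 6 epithelial markers summed to at most 0.2443 CPM. The part of these markers in the annexin results was not tested, and in bulk RNA fewer cells of a type and less RNA per cell cannot be told apart.

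Anxa8, a membrane-binding annexin known from late endosomes and from epithelia such as skin, is encoded on the plus strand of chromosome 14 (chr14:34085981-34100571, GRCm38, ENSMUSG00000021950). Its counts by replicate number were 141, 161 and 197 in the vehicle group, 47, 48 and 67 after rhWnt3a alone, and 3, 3 and 3 after rhWnt3a plus OSMI. All 3 vehicle libraries lay above all rhWnt3a libraries, and these lay above all libraries with OSMI. In CPM the means were 10 ± 1.28 (SD, n = 3), 3.20 ± 0.704 and 0.176 ± 0.00475. The summed level with vehicle was 3.14 times that with rhWnt3a, with a 95% interval for counting error of 2.63 to 3.77 (Clopper-Pearson). The level with rhWnt3a was 18.1 times that with rhWnt3a and OSMI (9.32 to 40.4), a wide interval because it rests on 9 counts against 162. Against vehicle the ratio was 57.0 (29.8 to 125). Such intervals cover counting error only. The fitted log2 fold changes were −1.64, −4.13 and −5.77 with all 9 libraries, and −1.49, −4.23 and −5.72 without those that lay apart. The nearest genes on the chromosome, Antxrl at 9576 bases and Npy4r at 43421 bases, had at most 3 and 4 counts in any library. The gene on the opposite strand that overlaps Anxa8, A630023A22Rik, had at most 3, and no other gene was at least 97% identical to its transcript over 100 bases.

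The promoters of 4 members are printed because these genes were lower in at least 1 comparison and differ in their levels. Anxa8 and Anxa11 are the members with the lowest FPKM, while Anxa2 and Anxa4 are among the more abundant. RefSeq promoters on GRCm38.p6, with 250 bases before and 50 after the start, matched 7 members with 9 sequences, and Anxa3 and Anxa6 have no entry. Capitals mark motifs found on either strand: the TCF/LEF motif of Wnt signalling (CTTTGAA, further its variant CTTTGAT, further its variant CTTTGTA and further its variant CTTTGTT), AP-1 (TGACTCA), the TATA box (TATAAA) and the GC box (GGGCGG). The promoters shown lie at chr14:34085729-34086028 (plus strand) for Anxa8, chr6:86793535-86793834 (minus strand) for the first of Anxa4, chr14:25841905-25842204 (plus) for Anxa11 and chr9:69453433-69453732 (plus) for Anxa2.
Anxa8: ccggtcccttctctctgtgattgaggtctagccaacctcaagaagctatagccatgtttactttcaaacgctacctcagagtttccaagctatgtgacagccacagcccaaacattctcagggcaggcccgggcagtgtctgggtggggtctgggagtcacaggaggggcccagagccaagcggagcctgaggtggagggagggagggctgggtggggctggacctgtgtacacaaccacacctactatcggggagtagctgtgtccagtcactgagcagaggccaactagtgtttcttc
Anxa4: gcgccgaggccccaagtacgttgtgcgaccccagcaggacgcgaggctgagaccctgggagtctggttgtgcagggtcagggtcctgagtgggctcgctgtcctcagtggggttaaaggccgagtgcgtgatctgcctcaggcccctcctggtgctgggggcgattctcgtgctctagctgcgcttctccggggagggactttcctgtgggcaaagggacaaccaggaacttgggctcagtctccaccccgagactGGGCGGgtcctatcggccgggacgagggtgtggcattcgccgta
Anxa11: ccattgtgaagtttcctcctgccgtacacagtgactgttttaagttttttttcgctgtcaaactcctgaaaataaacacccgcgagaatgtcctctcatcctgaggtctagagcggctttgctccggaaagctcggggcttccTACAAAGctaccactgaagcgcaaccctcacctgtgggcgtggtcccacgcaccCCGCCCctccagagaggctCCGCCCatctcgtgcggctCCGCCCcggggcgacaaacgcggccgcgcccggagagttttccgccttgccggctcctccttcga
Anxa2: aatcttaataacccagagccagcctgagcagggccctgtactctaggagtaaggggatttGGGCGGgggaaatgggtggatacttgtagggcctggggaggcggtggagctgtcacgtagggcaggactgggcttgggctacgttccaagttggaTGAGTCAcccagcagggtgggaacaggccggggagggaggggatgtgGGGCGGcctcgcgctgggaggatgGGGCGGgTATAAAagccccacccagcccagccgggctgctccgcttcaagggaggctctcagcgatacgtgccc
The Anxa8 window held none of the 4 motifs, and the first of Anxa4 held a GC box 7 bases after the start. The second Anxa4 promoter (chr6:86775065-86775364), not printed, held a TCF/LEF motif 91 bases before its start and no GC box. In Anxa11 the TCF/LEF motif began 107 bases before the start, with 3 GC boxes after it. Anxa2 held an AP-1 motif, a TATA box and 3 GC boxes. Over the 9 member promoters, TCF/LEF was found in 3, AP-1 in 1, the TATA box in 2 and the GC box in 5. The first and second promoters of Anxa7 overlap and share a GC box, so the 9 are not all separate sequences. Among all 32851 promoters of that length the shares were 16.9%, 5.20%, 13.6% and 35.7%. A match is a description, not a site or a cause, and no match says only that these letters are not in this window. The 9 members lie on 7 chromosomes, and Anxa7, Anxa8 and Anxa11 start within 13.6 megabases of each other on chromosome 14.

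The genes whose pattern was most like that of Anxa8 were sought among 12543 tested genes by the root mean square difference of log2 CPM over the 9 libraries, each gene centred on its own mean. They were Rtl3 (difference 0.58), Rgs4 (0.69), Calml4 (0.69), Sema3b (0.70) and Aspn (0.73). Rtl3, a gene of retrotransposon origin, stood at 31.1, 28.0 and 36.2 CPM with vehicle, 6.75, 7.90 and 8.14 with rhWnt3a alone, and 1.87, 0.918 and 1.86 with rhWnt3a and OSMI. Rgs4 encodes a regulator of G protein signalling, and its CPM was 16.3, 13.9 and 17.1, then 7.30, 7.39 and 7.84, then 1.27, 1.09 and 1.52. Aspn, the matrix protein asporin, went from 11, 9.56 and 4.13 CPM with vehicle to 0.973, 1.19 and 1.08 with rhWnt3a, and had 3, 3 and 1 counts with rhWnt3a and OSMI. Being chosen for their likeness, these genes order the groups as Anxa8 does and get no test. Of the other annexins, Anxa2, Anxa4, Anxa5 and Anxa6 were the closest, with differences of 1.66, 1.70, 1.74 and 1.77 and ranks of 438, 532, 685 and 820 among the genes compared. Anxa1 ranked 1142, Anxa7 3582 and Anxa11 3906, and the farthest, Anxa3, differed by 2.14 and ranked 6378.

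**Figure D2:**
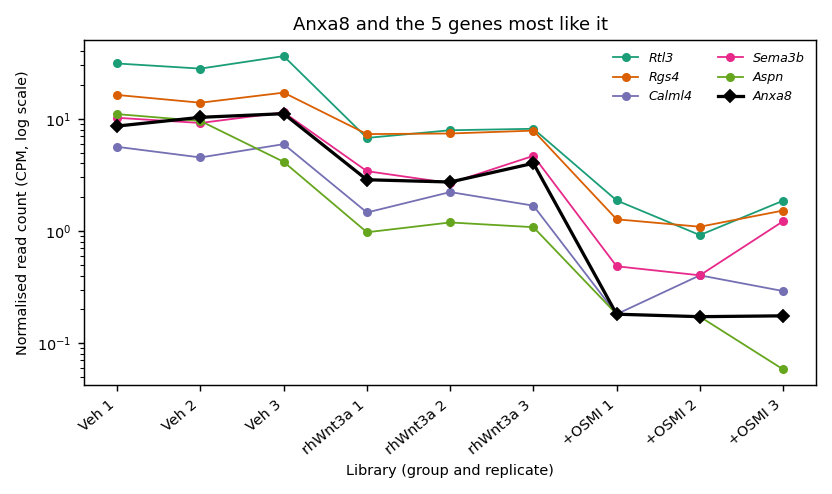
Normalised read count (CPM, log axis) of Anxa8 and of the 5 genes most like it, with the 9 libraries on the x axis. In each of the 6 genes all vehicle libraries lie above all rhWnt3a libraries, which lie above all libraries with rhWnt3a and OSMI.

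**Figure D3:**
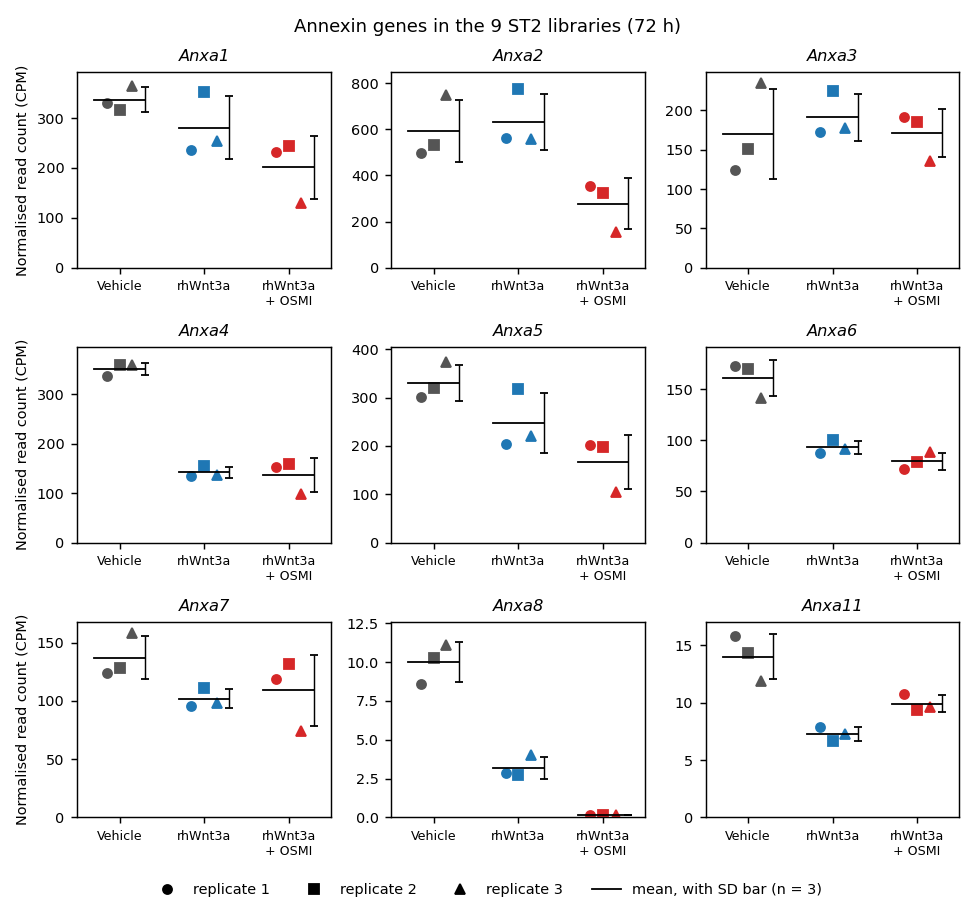
Normalised read count (CPM) of the 9 annexin genes by group, with a symbol for each replicate and the mean with its SD (n = 3). Anxa4, Anxa6, Anxa7, Anxa8 and Anxa11 stand below vehicle in all rhWnt3a libraries, and Anxa2 and Anxa5 are lowest in the 3 libraries with OSMI.

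Anxa2 pairs with S100a10 in a surface complex that binds plasminogen and its activator tPA. On chromosome 9 (ENSMUSG00000032231, chr9:69453620-69491795), it stood at 499, 531 and 749 CPM with vehicle, 564, 774 and 557 with rhWnt3a alone, and 356, 325 and 154 with rhWnt3a and OSMI. Vehicle and rhWnt3a libraries overlapped, and all 3 libraries with OSMI lay below both groups, OSMI replicate 3 the lowest. The log2 fold change of rhWnt3a against vehicle was 0.09 (SE 0.30, adjusted p = 0.926). That of OSMI against rhWnt3a was −1.18 (SE 0.31, adjusted p = 0.0569), just outside the threshold, and that of OSMI against vehicle was −1.09 (SE 0.30, adjusted p = 0.0381), which was called. Anxa1, a glucocorticoid-induced protein that acts through formyl peptide receptors (ENSMUSG00000024659, chr19:20373428-20390944), stood at 330, 317 and 364 CPM with vehicle, 236, 352 and 255 with rhWnt3a alone, and 231, 243 and 129 with rhWnt3a and OSMI. Its vehicle libraries lay above those with OSMI, and the rhWnt3a libraries overlapped both. In the edgeR fit with the planned filter and no length correction no comparison of Anxa1 was called, with log2 fold changes of −0.26, −0.48 and −0.75 (SE 0.24 each) for rhWnt3a against vehicle, OSMI against rhWnt3a and OSMI against vehicle, and the lowest adjusted p was 0.0672. DESeq2 called it lower with OSMI against vehicle. Without the 3 libraries that lay apart the value for OSMI against rhWnt3a was −0.055.

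The 8 S100 genes, calcium-binding partners of annexins, were all tested. Compared with vehicle, rhWnt3a gave 0 calls among them by edgeR and 0 by DESeq2, and 1 had an unadjusted p under 0.05. Of the same genes, OSMI against rhWnt3a gave 1 edgeR call and OSMI against vehicle 3, all lower. DESeq2 called 6 and 5 in these comparisons, and 7 and 5 had an unadjusted p under 0.05. The shares called over all tested genes were 8.78%, 4.74% and 14.2% by edgeR in the 3 comparisons. By DESeq2 they were 8.7%, 9.1% and 14% of the genes it tested. The median log2 fold changes of the 8 S100 genes were 0.18, −1.21 and −0.84, against 0.04, −0.01 and −0.01 over all tested genes. Those of the 3501 shortest tested genes were 0.08, −0.28 and −0.21. Summed over the list, vehicle had 517.8, 566.5 and 572.1 CPM, rhWnt3a 589.7, 947 and 636.4, and the OSMI group 469.1, 562.5 and 215.1. OSMI replicate 2 lay within the vehicle range and OSMI replicate 3 far below it. The highest sum, in rhWnt3a replicate 2, and the lowest, in OSMI replicate 3, came from libraries that lay apart. The part of these libraries and of gene length in the medians was not tested. S100b stood at 9.59, 9.05 and 7.75 CPM with vehicle, 4.38, 7.11 and 5.15 with rhWnt3a alone, and 0.665, 1.15 and 0.816 with rhWnt3a and OSMI. It was lowest in all 3 libraries with OSMI, with log2 fold changes of −2.65 (SE 0.28, adjusted p = 0.00171) against rhWnt3a and −3.31 (SE 0.28, adjusted p = 7.69e-05) against vehicle, and it kept both calls in all 15 alternatives fitted for partner genes. S100a1 was called lower against vehicle (log2 fold change −1.98, SE 0.46, adjusted p = 0.0176), kept in 14 of 15, and so was S100a11 (−0.61, SE 0.15, adjusted p = 0.0221), the partner of Anxa1 and the most abundant of these genes per length. The call of S100a11 held in 10 of 15 alternatives and was lost with the length correction. S100a10, the partner of Anxa2, was not called in any comparison and stood at 136, 149 and 154 CPM with vehicle, 186, 289 and 187 with rhWnt3a alone, and 132, 164 and 43.4 with rhWnt3a and OSMI. Within libraries, the FPKM of Anxa2 was 1.19, 1.16 and 1.58 times that of S100a10 with vehicle, and 0.985, 0.870 and 0.965 times with rhWnt3a, so the groups did not overlap. With rhWnt3a and OSMI the ratio was 0.877, 0.644 and 1.15 and overlapped that with rhWnt3a. The ratio of Anxa1 to S100a11 was 0.424 ± 0.0209 (SD, n = 3) with vehicle, 0.353 ± 0.0292 with rhWnt3a and 0.381 ± 0.0903 with rhWnt3a and OSMI.

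Of the plasmin system, which the complex of Anxa2 and S100a10 serves at the cell surface, 6 genes were tested, and Lrp1 was the most abundant per length. Of these, 2 were called higher with rhWnt3a against vehicle, and the same 2 lower with OSMI against rhWnt3a and against vehicle. Among all tested genes the shares called in these comparisons were 8.78%, 4.74% and 14.2%, in either direction. Plat, which encodes tPA, stood at 65.6, 61.4 and 60.2 CPM with vehicle, 107, 113 and 115 with rhWnt3a alone, and 28.1, 27.4 and 45.5 with rhWnt3a and OSMI. Plat was highest in all rhWnt3a libraries and lowest in all libraries with OSMI. Its log2 fold change was 0.84 (SE 0.19, adjusted p = 0.0196) with rhWnt3a, a call kept in 10 of 15 alternatives, and −1.73 (SE 0.19, adjusted p = 0.00182) with OSMI against rhWnt3a, kept in all 15. Plau, the gene of urokinase, moved the same way, with log2 fold changes of 1.09 (SE 0.19, adjusted p = 0.00597) and −1.95 (SE 0.20, adjusted p = 0.00171). The calls of Plau in these comparisons held in all 15 alternatives. Both comparisons use the rhWnt3a libraries. Against vehicle, OSMI gave log2 fold changes of −0.89 for Plat (SE 0.19, adjusted p = 0.0112) and −0.86 for Plau (SE 0.21, adjusted p = 0.0208), calls kept in 12 and 7 of 15 alternatives.

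**Figure D4:**
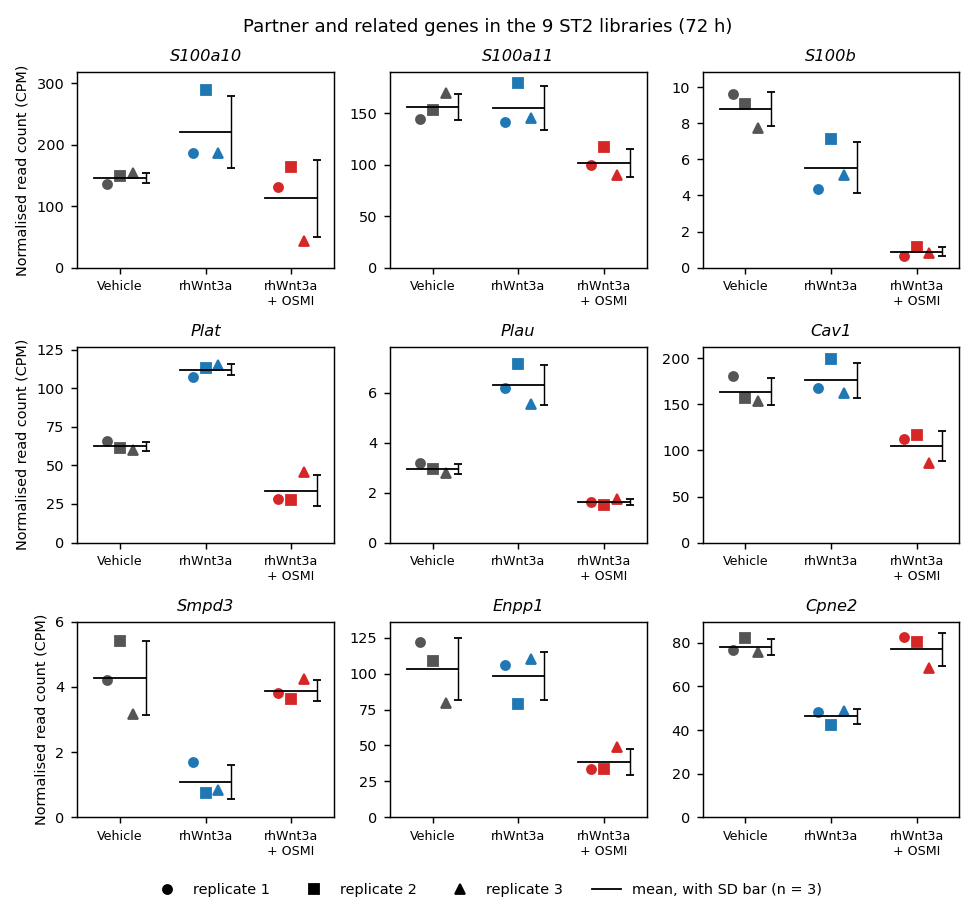
Normalised read count (CPM) of 9 partner and related genes by group, with a symbol for each replicate and the mean with its SD (n = 3). Plat and Plau are highest and Smpd3 and Cpne2 lowest in the 3 rhWnt3a libraries, and S100b, Enpp1 and Cav1 are lowest in the 3 libraries with rhWnt3a and OSMI.

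Anxa5, known for its binding to phosphatidylserine (ENSMUSG00000027712, chr3:36448923-36475894), stood at 301, 320 and 373 CPM with vehicle, 205, 319 and 220 with rhWnt3a alone, and 201, 198 and 104 with rhWnt3a and OSMI. The libraries with OSMI lay below both other groups, while rhWnt3a replicate 2 reached the vehicle range. Its log2 fold changes were −0.42 (SE 0.26, adjusted p = 0.460) for rhWnt3a against vehicle, −0.57 (SE 0.26, adjusted p = 0.232) for OSMI against rhWnt3a and −0.98 (SE 0.26, adjusted p = 0.0323) for OSMI against vehicle, of which the last was called. Without the 3 libraries that lay apart the log2 fold changes were −0.58, −0.10 and −0.68, of which the first and the last were called. Anxa6, the annexin with a duplicated core (ENSMUSG00000018340, chr11:54979108-55033445), stood at 173, 170 and 141 CPM with vehicle, 87.5, 100 and 91.5 with rhWnt3a alone, and 71.5, 78.6 and 88.4 with rhWnt3a and OSMI. All vehicle libraries lay above the libraries of both other groups, which overlapped. It was called lower with rhWnt3a against vehicle (log2 fold change −0.79, SE 0.14, adjusted p = 0.00472) and with OSMI against vehicle (−1.02, SE 0.14, adjusted p = 0.000991), while OSMI against rhWnt3a gave −0.23 (SE 0.13, adjusted p = 0.339).

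Of 8 genes of matrix vesicle mineralization 6 were tested, and Ank, which exports pyrophosphate, was the most abundant per length. Alpl, the alkaline phosphatase of mineralizing cells, had at most 6 counts in any library. With rhWnt3a against vehicle 2 genes were called lower, and with OSMI against rhWnt3a 2 higher and 1 lower. With OSMI against vehicle 1 was called higher and 2 lower. The corresponding shares of all tested genes were 8.78%, 4.74% and 14.2%, in either direction. Ank stood at 217, 222 and 156 CPM with vehicle, 93.0, 107 and 98.0 with rhWnt3a alone, and 98.6, 128 and 113 with rhWnt3a and OSMI, so that vehicle lay above both. Its log2 fold change with rhWnt3a was −1 (SE 0.17, adjusted p = 0.00409), and with OSMI against vehicle −0.81 (SE 0.17, adjusted p = 0.00938), the latter kept in 13 of 15 alternatives. Smpd3, a sphingomyelinase needed for mineralization of the skeleton, stood at 4.21, 5.42 and 3.17 CPM with vehicle, 1.70, 0.739 and 0.838 with rhWnt3a alone, and 3.81, 3.62 and 4.25 with rhWnt3a and OSMI. It was low in the rhWnt3a libraries alone, with log2 fold changes of −1.96 (SE 0.34, adjusted p = 0.00550) and 1.83 (SE 0.34, adjusted p = 0.0175), the latter kept in 10 of 15 alternatives. Enpp1, which makes pyrophosphate, was lower in all libraries with OSMI (33.4, 33.5 and 49.2 CPM) than in those with vehicle (79.4 to 122 CPM) or rhWnt3a (78.9 to 110 CPM). Its log2 fold change was −1.34 (SE 0.22, adjusted p = 0.00992) against rhWnt3a, kept in 13 of 15 alternatives, and −1.42 (SE 0.22, adjusted p = 0.00225) against vehicle. Slc20a2, a phosphate transporter, was called higher with OSMI, by 0.64 (SE 0.13, adjusted p = 0.0267) against rhWnt3a, kept in 8 of 15, and 0.75 (SE 0.13, adjusted p = 0.00459) against vehicle. Phospho1 had 3, 3 and 6 counts with vehicle and 22, 15 and 14 with rhWnt3a, and it passed the filter only through the latter, so its call as higher, kept in 6 of 15 alternatives, is not counted above.

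Anxa4, found mainly in epithelia and able to aggregate membranes (ENSMUSG00000029994, chr6:86736840-86793584), stood at 338, 359 and 359 CPM with vehicle, 134, 154 and 137 with rhWnt3a alone, and 153, 160 and 98.0 with rhWnt3a and OSMI. All vehicle libraries lay far above all others, and the rhWnt3a libraries overlapped those with OSMI. It was called lower with rhWnt3a against vehicle (log2 fold change −1.31, SE 0.18, adjusted p = 0.00154) and with OSMI against vehicle (−1.36, SE 0.18, adjusted p = 0.00111), the largest falls among the members tested with all 9 libraries. Without those that lay apart, Anxa6 fell further than Anxa4 with OSMI against vehicle (−1.23 against −1.19). OSMI against rhWnt3a gave −0.05 (SE 0.18, adjusted p = 0.893).

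Anxa11 and Anxa7 have long amino-terminal regions that bind penta-EF-hand proteins, Pdcd6 in the case of Anxa11 and sorcin (Sri) in that of Anxa7. Anxa11 (ENSMUSG00000021866, chr14:25842156-25886804) stood at 15.8, 14.3 and 11.9 CPM with vehicle, 7.85, 6.65 and 7.30 with rhWnt3a alone, and 10.8, 9.35 and 9.62 with rhWnt3a and OSMI. The groups did not overlap, with vehicle highest and rhWnt3a lowest. Its log2 fold change was −0.95 (SE 0.16, adjusted p = 0.00485) with rhWnt3a against vehicle, which was called, 0.45 (SE 0.16, adjusted p = 0.143) with OSMI against rhWnt3a and −0.50 (SE 0.16, adjusted p = 0.0626) with OSMI against vehicle. The pseudogene Gm2260 matches 657 bases of the Anxa11 transcript (27.4% of it) in stretches at least 97% identical, the best of them 100% identical. Reads from identical stretches cannot be told apart by sequence. Gm2260 had 1, 1 and 2 counts with vehicle, 2, 5 and 0 with rhWnt3a alone, and 38, 14 and 12 with rhWnt3a and OSMI, and its part in the values of Anxa11 was not tested. Anxa7 (ENSMUSG00000021814, chr14:20455260-20480133) stood at 124, 128 and 158 CPM with vehicle, 95.9, 111 and 98.2 with rhWnt3a alone, and 119, 132 and 74.3 with rhWnt3a and OSMI. The rhWnt3a libraries lay below those with vehicle, and OSMI replicate 3 lay below all others while OSMI replicates 1 and 2 did not. No comparison of Anxa7 was called, with log2 fold changes of −0.43, 0.10 and −0.33 (SE 0.20 each) and a lowest adjusted p of 0.292. For OSMI against vehicle the value was −0.12 without OSMI replicate 3 and −0.040 without the 3 libraries that lay apart. In the latter fit OSMI against rhWnt3a gave 0.37 (adjusted p = 0.000408), which is below the fold threshold. Of 7 penta-EF-hand genes 6 were tested, and their median log2 fold changes were −0.05, −0.35 and −0.38 in the 3 comparisons. The only edgeR call was a lower Capns1 with OSMI against vehicle (log2 fold change −0.72, SE 0.21, adjusted p = 0.0447), and it held in 4 of 15 alternatives. Capns1 encodes the small calpain subunit and was the most abundant of the list per length. Calls over all tested genes made up 8.78%, 4.74% and 14.2% in the 3 comparisons. Pdcd6 ranged from 33.7 to 80.4 CPM and Sri from 30.9 to 56.8 CPM over the 9 libraries, with the lowest value of each in OSMI replicate 3.

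Anxa3, described as an inhibitor of phospholipase A2 (ENSMUSG00000029484, chr5:96793339-96845966), stood at 124, 151 and 234 CPM with vehicle, 172, 225 and 177 with rhWnt3a alone, and 191, 185 and 136 with rhWnt3a and OSMI. All 3 groups overlapped, and vehicle alone spanned the range of the others. Its log2 fold changes were 0.17, −0.16 and 0.01 (SE 0.24 each), and none was called. The signs against vehicle changed when single libraries were left out, and that of OSMI against rhWnt3a changed without the 3 libraries that lay apart, so no direction is given for Anxa3. Of Pla2g4a, the cytosolic phospholipase A2, and the 3 formyl peptide receptor genes, Pla2g4a and Fpr1 were tested. Neither was called in any comparison by edgeR or DESeq2, and Pla2g4a had no unadjusted p under 0.05. Fpr1 passed the filter on low counts only through the vehicle libraries (16, 10 and 11 counts), so its p-values are not counted. Fpr3 had 0 counts in every library.

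Annexins gather at sites of membrane damage together with dysferlin and caveolar proteins, and 6 of 7 genes of plasma membrane repair were tested. With rhWnt3a against vehicle, edgeR called 0 of them, DESeq2 called Dysf, and 2 had an unadjusted p under 0.05. In that comparison edgeR called 8.78% of all tested genes and DESeq2 8.7% of those it tested. Cav1, the coat protein of caveolae, was lower in the libraries with OSMI (112, 117 and 86.1 CPM) than in any with vehicle (154 to 181 CPM) or rhWnt3a (162 to 199 CPM). Its log2 fold change was −0.75 (SE 0.15, adjusted p = 0.0259) against rhWnt3a, kept in 7 of 15 alternatives, and −0.64 (SE 0.15, adjusted p = 0.0199) against vehicle, kept in 12. Cavin1, the second caveolar gene of the list, was called lower with OSMI against vehicle (−0.58, SE 0.14, adjusted p = 0.0189), and Dysf higher with OSMI against rhWnt3a (0.80, SE 0.19, adjusted p = 0.0474). These calls held in 8 and 5 of 15 alternatives. Ahnak, a giant protein bound by Anxa2 and S100a10, was the most abundant per length and ranged from 1150 CPM in rhWnt3a replicate 2 to 4690 CPM in vehicle replicate 2. Copines share the calcium-dependent binding of membranes with annexins, and 3 of 9 were tested. Cpne2 stood at 76.5, 82.3 and 75.6 CPM with vehicle, 48.1, 42.5 and 48.7 with rhWnt3a alone, and 82.5, 80.2 and 68.4 with rhWnt3a and OSMI. It was low in the rhWnt3a libraries alone, with log2 fold changes of −0.75 (SE 0.12, adjusted p = 0.00394) with rhWnt3a and 0.73 (SE 0.12, adjusted p = 0.0112) with OSMI against rhWnt3a, the latter kept in 14 of 15 alternatives and lost with the replicate block.

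The comparison of rhWnt3a with vehicle asks what 72 h of the Wnt ligand changed in these cells. Anxa4, Anxa6 and Anxa11 fell, Anxa4 to 40.2% of the vehicle mean, Anxa6 to 57.6% and Anxa11 to 51.9%. Anxa8 stood at 32.0% of it, while Anxa1, Anxa2, Anxa3 and Anxa5 overlapped vehicle. Of the 8 members tested, 3 were called lower and 0 higher, and of all 14004 tested genes 8.78% were called in either direction. All 3 calls held in all 17 alternatives that kept the thresholds, the length correction and the fit without the libraries that lay apart among them, and a log2 threshold of 1 left 1 of them, Anxa4. An unadjusted p under 0.05 with the same fold threshold was reached by 3 members and by 15.4% of all tested genes. The 3 rhWnt3a libraries lay wholly below the vehicle libraries for 4 members, with Anxa7 beside the 3 called, against 26.4% of all tested genes without overlap in either direction. The median log2 fold change of the 8 members was −0.42 and that of all tested genes 0.04. With 3 libraries against 3, an exact permutation of a single gene cannot give a p below 0.1, so the calls depend on a spread estimated from many genes together.

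The addition of OSMI to rhWnt3a asks which values change when OGT is inhibited in the presence of the ligand. Anxa2 and Anxa5 were lower in every library with OSMI than in any rhWnt3a library, at 44.1% and 67.5% of the rhWnt3a mean, and Anxa11 was higher in every one at 136%, yet none of these differences was called. Anxa8 stood at 5.51% of the rhWnt3a mean. Of the 8 members tested, edgeR called 0, against 4.74% of all tested genes. At an unadjusted p under 0.05 there were 2, of which 1 also had a log2 fold change beyond 0.5, as had 16.2% of all tested genes. DESeq2 called 1, Anxa2, and 9.10% of the genes it tested. Groups did not overlap for 3 members, 2 lower and 1 higher, against 33.7% of all tested genes. Anxa2 was also called with no filter, with the length correction, where its log2 fold change was −1.15, and without the 3 libraries that lay apart, where it was −0.72, and its adjusted p ranged from 1.17e-07 to 0.161 over its 17 alternatives. Without those 3 libraries, the remaining OSMI libraries lie on one side of the axis of gene length and the remaining vehicle and rhWnt3a libraries on the other. Each side is relative to the mean of the library's own group, so it does not compare libraries between groups. The part of gene length in that fit was not tested. The members' median log2 fold change was −0.20, that of all tested genes −0.01.

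The comparison of rhWnt3a and OSMI with vehicle shares libraries with both others and gives the combined difference. Anxa4 and Anxa6 fell to 38.9% and 49.2% of the vehicle mean, and Anxa2 and Anxa5 to 46.9% and 50.6%, while Anxa3 stood at 101%. Anxa8 stood at 1.76% of it. Of the 8 members 4 were called lower and 0 higher, against 14.2% of all tested genes. With an unadjusted p under 0.05 there were 6, of which 5 also passed the fold threshold, as did 22.8% of all tested genes. DESeq2 called 6, and 14% of the genes it tested. All libraries with OSMI lay below all vehicle libraries for 6 members, Anxa3 and Anxa7 being the exceptions, against 38.8% of all tested genes without overlap. The members' median log2 fold change was −0.87 and that of all tested genes −0.01. The calls of Anxa4 and Anxa6 held in the same 17 alternatives. The call of Anxa2 was lost without any single one of vehicle replicates 1, 2 and 3 (adjusted p = 0.0617, 0.0843 and 0.105), rhWnt3a replicates 1 and 3 (0.0623 and 0.0588) or OSMI replicate 2 (0.0661), and also with the replicate number as a block (0.0791) and with only the 6 libraries compared (0.0682). That of Anxa5 was lost without vehicle replicate 1, 2 or 3 (adjusted p = 0.0639, 0.0900 and 0.0791), rhWnt3a replicate 3 (0.0511) or OSMI replicate 2 (0.0522), and with the block (0.0542). In the fit without the libraries that lay apart, calls were more frequent over all tested genes too, at 18.1%, 12.7% and 23.7% in the 3 comparisons. Over all alternatives the log2 fold change of Anxa2 ranged from −1.28 to −0.64 with an adjusted p of 2.51e-07 to 0.105, and that of Anxa5 from −1.11 to −0.68 with 6.33e-08 to 0.0900. Anxa1 was called with DESeq2 (log2 fold change −0.76), with no filter (−0.76), with the length correction (−0.63) and without rhWnt3a replicate 2 (−0.73). Anxa11 was called with DESeq2 (−0.50), without vehicle replicate 3 (−0.60) and without the 3 libraries that lay apart (−0.62).

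**Figure D5:**
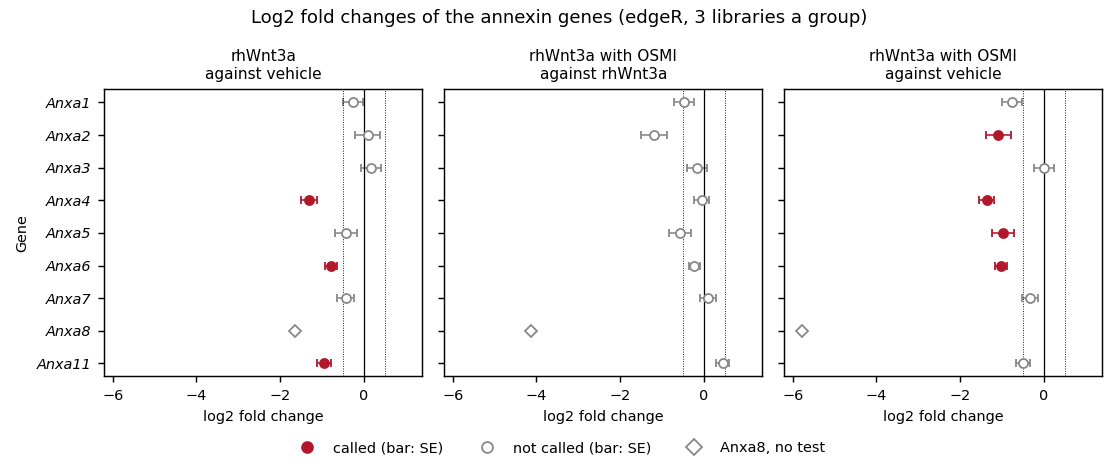
Log2 fold change of the 9 annexin genes in the 3 comparisons, with bars for the standard error, filled circles for called genes and dotted lines at 0.5 on either side of 0. Called are Anxa4, Anxa6 and Anxa11 with rhWnt3a against vehicle, none with OSMI against rhWnt3a by edgeR, and Anxa2, Anxa4, Anxa5 and Anxa6 with OSMI against vehicle. Anxa8 has no test.

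Summed over the 9 members, the family made up 1914, 2001 and 2401 CPM with vehicle, 1506, 2045 and 1546 with rhWnt3a alone, and 1334, 1332 and 793.2 with rhWnt3a and OSMI. The libraries with OSMI lay below all others, and rhWnt3a replicate 2 lay within the vehicle range. The means were 2105 ± 260.0 (SD, n = 3), 1699 ± 300 and 1153 ± 311 CPM. Without Anxa2, the gene with most counts, the sums were 1415, 1469 and 1652 CPM with vehicle, 941.5, 1271 and 988.9 with rhWnt3a alone, and 977.6, 1007 and 639.0 with rhWnt3a and OSMI. There all vehicle libraries lay above all others, and the rhWnt3a libraries overlapped those with OSMI.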

How the data were processed

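Messenger RNA of 9 ST2 libraries was measured, 3 each with vehicle, rhWnt3a, and rhWnt3a with OSMI, all at 72 h, and samples were grouped by their titles. The authors deposited a table of 54532 genes in 43 columns that holds raw counts of reads per gene, without normalization. The deposited FPKM values were computed by the authors per kilobase of gene length and per total of counted reads, and gene length in bases is a column of the deposited table. The labels name poly-A selection, CASAVA, fastp, HISAT2 2.0.5, featureCounts 1.5.0-p3 and the build mm10, and state neither strand nor annotation release. The authors' 15 comparison columns hold their fold changes and p-values and were not used here.

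Counts were fitted in R 4.3.3 with edgeR 4.0.16 (filterByExpr with a minimum count of 10 and total of 15, TMM, glmQLFit on all 9 libraries, two-sided glmQLFTest), which left 14004 genes, all 9 members among them, with a common dispersion of 0.0452. Adjusted p-values are from edgeR by Benjamini-Hochberg over all tested genes in each comparison, and a call needs both a log2 fold change larger than 0.5 in either direction and an adjusted p below 0.05. The fit was tested on simulated data. CPM are computed on library sizes after TMM, and log2 CPM add a prior count of 2. At the depth given per group in the report, 3 counts equal about 0.18 CPM. Intervals are Clopper-Pearson at 95%, from scipy 1.17.1. Alternatives were DESeq2 1.42.0, RLE size factors, other count filters and thresholds, only the 6 libraries compared, the replicate number as a block, leaving out each library, leaving out the libraries that lay apart, and a length correction (an offset from a smooth of each library's deviation over log2 gene length). Changed thresholds were used only for the number of members called, and for partner genes the RLE size factors and the filter of 10 counts in every library were left out. Named genes are the members, called genes of the lists of partners (up to 4 per list and comparison) and the most abundant per list. Also named are the 5 genes most like Anxa8 with a mean log2 CPM above 0, and Gm2260, added after its values were seen. Other annexins, neighbours and overlapping genes of Anxa8, binding partners of single members, cell type markers and genes with few counts are named as well. A withheld item is not reported here. The members and lists were chosen with earlier results of these data known. Positions are from GENCODE M21, copies were searched with BLAST 2.17.0, and promoters are from RefSeq.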

Additional observations from a re-analysis of the deposited data

How the results depend on the processing

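Compared with vehicle, rhWnt3a lowered 3 of the 8 tested members under all alternatives but a log2 threshold of 1, which left 1, and the fit without the libraries that lay apart, which gave 4, Anxa5 being added, where calls over all tested genes rose from 8.78% to 18.1%. Leaving out single libraries gave 3 in every case. For OSMI against rhWnt3a the count was 0, and it was 1 with DESeq2, 1 without a filter, 1 with unadjusted p, 1 without the libraries that lay apart and 1 with the length correction, Anxa2 each time. Leaving out single libraries gave 0 to 0. For OSMI against vehicle the count was 4. It was 2 with the replicate block, and 2 to 5 when single libraries were left out, 2 without vehicle replicate 1, vehicle replicate 2, rhWnt3a replicate 3 or OSMI replicate 2. The other alternatives gave 3 to 6. The cause of these changes was not tested, except that a stricter fold threshold can only lower a count. The fit without the libraries that lay apart and the length correction were chosen after seeing the data, as were all alternatives for the partner genes.

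The replicate block takes libraries with the same number as a pair. Deviations of same-numbered libraries correlated at 0.44, −0.49 and −0.49 for rhWnt3a and vehicle, −0.31, 0.37 and 0.33 for OSMI and rhWnt3a, and −0.32, −0.20 and −0.41 for OSMI and vehicle, so the numbers do not pair the samples in a common way. With the block the counts in the 3 comparisons were 3, 0 and 2.

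Over the 8 tested members and the 3 comparisons, 369 alternative values kept their direction and side of the threshold, 14 lost a call, 12 gained one and 13 changed sign. The values that changed sign lay from −0.16 to 0.17 in the fit with all 9 libraries. Leaving out single libraries, Anxa2 with rhWnt3a against vehicle ranged from −0.080 without rhWnt3a replicate 2 to 0.30 without vehicle replicate 3. Anxa3 ranged there from −0.010 without vehicle replicate 1 to 0.48 without vehicle replicate 3, and it was 0.11 for OSMI against rhWnt3a without the libraries that lay apart. For OSMI against vehicle Anxa3 was −0.0046 without a filter, and −0.16 without vehicle replicate 1 to 0.31 without vehicle replicate 3. Without the libraries that lay apart Anxa3 was 0.41 there (adjusted p = 0.000244), and 0.31 for rhWnt3a against vehicle. Anxa4 for OSMI against rhWnt3a was −0.15 without OSMI replicate 2 to 0.15 without OSMI replicate 3. Without the libraries that lay apart Anxa4 was 0.21 in this comparison (adjusted p = 0.022). Anxa7 was −0.043 there without OSMI replicate 2 to 0.31 without OSMI replicate 3, and 0.37 without the libraries that lay apart. The direction of Anxa8 was the same throughout, which is no test, since its values chose the family and its groups did not overlap. Anxa8 has no value with the filter of 10 counts in every library. The 5 genes most like Anxa8 were the same with a prior count of 0.5 and with RLE size factors. The 3 counts of Anxa8 in each OSMI library limit its ratio to a wide interval.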
